A study of Mus musculus with 4 samples.

Results

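The 4 pyruvate dehydrogenase kinase genes (Pdk1, Pdk2, Pdk3 and Pdk4) and 6 further genes that control the entry of pyruvate into mitochondrial oxidation (Pdp1, Pdp2, Mpc1, Mpc2, Pdha1 and Pdhb) were described in mouse small intestinal (SI) organoids, epithelial cultures from isolated crypts in which stem cells and differentiated cells grow together. Pdk4 was chosen by its large fall in this same contrast, and the other 9 genes were picked for their role in pyruvate entry, so the values of Pdk4 are given as a description with no test. Of 55487 genes listed, 17155 passed a filter on low counts and were tested, and all 10 were among them. The contrast set 2 libraries of SI organoids transduced with lentivirus for a miRNA mimic control (replicates 1 and 2) against 2 libraries of SI organoids transduced with lentivirus for a miR-181a-5p mimic (replicates 3 and 4). Both groups were grown in organoid growth medium and were held in puromycin (2 μg/ml), which keeps transduced cells. The labels give no strain, sex or age of the mice and do not say that libraries of a group came from separate cultures, so a p-value measures only the spread between these samples.

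Pyruvate made by glycolysis enters mitochondria through the mitochondrial pyruvate carrier, a pair of the proteins encoded by Mpc1 and Mpc2, and is turned into acetyl-CoA by the pyruvate dehydrogenase complex (PDC). The pyruvate dehydrogenase kinases phosphorylate the E1 alpha subunit of the complex, encoded by Pdha1, and so switch it off. Pyruvate dehydrogenase phosphatases (Pdp1 and Pdp2) remove that phosphate and switch it on again. The kinases are known for different settings: Pdk4 is induced by fasting, fatty acids and glucocorticoids, Pdk1 and Pdk3 by low oxygen, and Pdk2 is widely expressed.

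The libraries summed to between 31104884 and 38111731 expected counts, RSEM's estimates of the reads from each gene. Levels of different genes are compared as TPM, which is corrected for transcript length, and the same gene is compared between groups as normalized CPM, with TMM factors for the library sizes. Log2 fold changes are mimic over control, so negative values are lower with the mimic. The 7 epithelial markers (Epcam, Cdh1, Krt8, Krt18, Krt19, Vil1 and Cdx2) summed to 2899 and 2919 TPM in controls, versus 2592 and 3072 TPM in mimic libraries. Markers of mesenchymal cells, endothelial cells and leukocytes were low, and some were detected. The muscle marker Acta1 was higher, at 36.1 and 21.7 TPM in controls, versus 9.24 and 10.4 TPM in mimic libraries. It is described further below with the fat marker Cidec. Of the mesenchymal markers Col1a2, Col3a1 and Dcn were at 0 counts in every library, while Vim held between 109 and 245 counts and Pdgfrb between 29 and 61. Of the endothelial markers Cdh5 and Kdr were at 0 and Pecam1 held between 8 and 27 counts. The leukocyte markers summed to between 0.980 and 1.67 TPM, and among them Itgam had 55 and 75.5 counts in controls, versus 103 and 153 in mimic libraries (log2 fold change 1.001, SE 0.31, adjusted p 0.111, edgeR's quasi-likelihood test, Benjamini-Hochberg adjusted).

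A mimic adds mature miRNA, which pairs through bases 2 to 8, its seed, with sites in the 3′ UTRs of mRNAs. The RefSeq sequence of the mature miRNA is shown first, in RNA letters with the seed in capitals. The sites that match the whole seed (TGAATGT in DNA letters) are shown with it, because 4 of the 10 genes carried one in their longest 3′ UTR (GENCODE release M21, GRCm38). Capitals mark the match in the mRNA strand.
mmu-miR-181a-5p: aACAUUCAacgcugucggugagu
Pdk4 site: ttgctgcttcgTGAATGTgtgtggactct
Pdp1 site: atttttcctagTGAATGTtaaataaaggg
Pdp2 site: aagactagtttTGAATGTatattagatca
Pdhb site: ttcggacttTGAATGTaaagtcattga

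The match lay at chr6:5485384-5485390 in Pdk4, at chr4:11959892-11959898 in Pdp1 and at chr14:8166320-8166326 in Pdhb, all on the minus strand, and at chr8:104598293-104598299 on the plus strand in Pdp2. Counted from 1 at the start of the 3′ UTR, it began at base 59 in Pdk4, base 10 in Pdhb, base 675 in Pdp1 and base 3174 in Pdp2. In Pdp2 and Pdhb the match was followed by an A, the base that makes a longer form of the site. No match was found in the longest 3′ UTRs of Pdk1, Pdk2, Pdk3, Mpc1, Mpc2 or Pdha1. Among the tested genes with a 3′ UTR of at least 50 bases, 2362 of 12847 (18.4%) held the same match. That share was not matched for 3′ UTR length, which was 3907 bases in Pdp2, 2389 in Pdp1, 2098 in Pdk4 and 340 in Pdhb. Pdk1, with no match, had 3734 bases. A match in letters is a description and does not show that the miRNA binds there.

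Pdk4 (ENSMUSG00000019577; chr6:5483351-5496309, minus strand) had the lowest mean TPM of the 10 mRNAs in both groups, and its control values overlapped with those of Pdp1. Its expected counts were 302 and 119 with the mimic control, against 5 and 9 with the miR-181a-5p mimic. The exact Poisson 95% intervals, which cover counting error only, were 269 to 338 and 98.6 to 142 in controls, versus 1.62 to 11.7 and 4.12 to 17.1 in mimic libraries. Since Pdk4 was chosen by its fall, the gap between the groups follows from that choice and is no support for it. The controls also differed from each other by more than counting error. Normalized CPM averaged 5.86 ± 2.85 in controls, versus 0.206 ± 0.0659 in mimic libraries (SD, n = 2), a log2 fold change of -4.80 with a standard error (SE) of 0.53, or a level 27.8-fold lower. This value ranked 16 from the lowest among the tested genes. Without control replicate 1, the control library with the higher value, the log2 fold change was -4.18, and on the log2(TPM + 1) scale, which understates changes of low genes, it was -1.82.

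Pdk2 (ENSMUSG00000038967; chr11:95026258-95041354, minus strand) was the one gene among the other 9 that passed the test, and it fell. Its TPM was 34.3 and 31.3 in controls, versus 18.1 and 23.3 in mimic libraries. Both mimic libraries were below both controls, and the gap between the groups was wider than the spread inside either group. Normalized CPM went from 54.9 ± 3.42 to 32.2 ± 4.23 (SD, n = 2), a log2 fold change of -0.77 (SE 0.12), with a Benjamini-Hochberg adjusted p of 0.0256 over all genes tested (edgeR's quasi-likelihood test). The mimic level was 0.588 of the control level, which does not reach the 2-fold limit used with adjusted p to call a gene.

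For background, 3.57% of all tested genes had an adjusted p under 0.05, and 2.29% had such a p and a lower level under the mimic. So 1 of 9 genes is a small count, and nothing particular to the group of genes follows from it. None of the 9 was called at an adjusted p under 0.05 and a fold change of at least 2, where 0.589% of all tested genes were called higher and 1.47% lower, and none was called by edgeR's exact test or DESeq2 either. At an unadjusted p under 0.05 there were 2 of the 9, Pdk2 and Pdk3, beside 24.8% of all tested genes. The adjusted p of Pdk2 was 0.0743 without mimic replicate 3 (log2 fold change -0.63), 0.0794 without the filter on low counts, and 0.141 and 0.152 on the log2(TPM + 1) and log2(TPM + 0.1) scales. An antisense gene, Gm11513, overlaps Pdk2, and held 17 and 10 counts in controls, versus 4 and 14 in mimic libraries, against 2197 and 1626 and then 916 and 1254 for Pdk2. Whether reads were counted by strand is not given in the sources used here.

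Pdk1 (ENSMUSG00000006494; chr2:71873224-71903858, plus strand) was the main kinase transcript of the organoids. Its TPM was 160 and 209 in controls, versus 141 and 214 in mimic libraries. The groups overlapped, and each group had 1 high and 1 low library. The log2 fold change was -0.031 (SE 0.18, adjusted p 0.932, edgeR's quasi-likelihood test, Benjamini-Hochberg adjusted), and its sign turned when control replicate 2 (0.14) or mimic replicate 3 (0.20) was left out. The summed TPM of the 12 HIF-1 targets listed with the pathway genes, which are known to respond to low oxygen, was 807 and 1213 in controls, versus 786 and 1149 in mimic libraries. The libraries low in Pdk1, control replicate 1 and mimic replicate 3, were thus also the ones low in this sum. That order was not particular to HIF-1 targets. The listed genes of the tricarboxylic acid cycle summed to 2630 and 3238 TPM in controls, versus 2905 and 3115 TPM in mimic libraries. The sums of the listed PPAR targets and FOXO targets did not follow it. The part of Pdk1 or of the HIF-1 targets in the other was not tested.

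Pdk3 (ENSMUSG00000035232; chrX:93764607-93832201, minus strand) had higher values with the mimic but did not pass the test. Its TPM was 12.2 and 13.6 in controls, versus 14.0 and 19.4 in mimic libraries. Both mimic libraries were above both controls, by a small margin in replicate 3 and a larger one in replicate 4. The log2 fold change was 0.35 (SE 0.14), with a Benjamini-Hochberg adjusted p of 0.186 (edgeR's quasi-likelihood test).

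**Figure D1:**
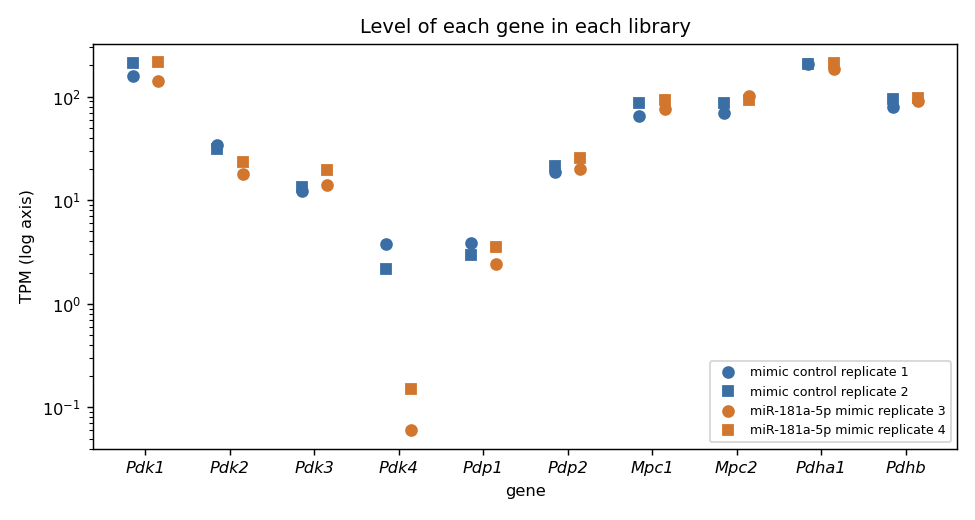
TPM (log axis) of each of the 10 genes in each library, with blue for the mimic control, orange for the miR-181a-5p mimic, and the symbol for the replicate. Pdk4 drops from 3.74 and 2.19 TPM to 0.06 and 0.15 TPM, Pdk2 is lower in both mimic libraries, and most other genes overlap between the groups.

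The makeup of the kinase pool was compared in TPM, per library and with no test, since with 2 libraries against 2 an exact permutation test cannot go below p = 0.333. The 4 kinases together gave 210 and 256 TPM in controls, versus 174 and 257 TPM in mimic libraries, so the pool as a whole overlapped between the groups. Pdk1 made up 76.1% and 81.7% of it in controls, versus 81.5% and 83.3% in mimic libraries. Pdk4 made up 1.78% and 0.854% in controls, versus 0.0346% and 0.0583% in mimic libraries. Thus the kinase with the largest fall was a minor part of the pool before it fell.

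The share of Pdk2 was 16.3% and 12.2% in controls, versus 10.4% and 9.07% in mimic libraries. The share of Pdk3 was 5.80% and 5.28% in controls, versus 8.08% and 7.56% in mimic libraries. Neither share overlapped between the groups, and they went in opposite directions. In CPM, 28.9% of all tested genes were higher and 29.5% lower in both mimic libraries, so such a separation is common here. Shares of the same pool are tied, so a lower share of Pdk2 by itself raises that of Pdk3. The level of Pdk3 did not pass the test. The Pdk3 to Pdk2 ratio of TPM was 0.355 and 0.433 in controls, versus 0.775 and 0.833 in mimic libraries, which brought Pdk3 close to Pdk2.

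Pdp2 (ENSMUSG00000048371; chr8:104591451-104599026, plus strand) was the main phosphatase transcript, and neither phosphatase passed the test. The TPM of Pdp2 was 18.6 and 21.3 in controls, versus 20.2 and 25.7 in mimic libraries, and its log2 fold change was 0.13 (SE 0.12). The TPM of Pdp1 (ENSMUSG00000049225; chr4:11958184-11966452, minus strand) was 3.88 and 2.95 in controls, versus 2.42 and 3.56 in mimic libraries, and its log2 fold change was -0.27 (SE 0.23). Both genes overlapped between the groups. In edgeR's quasi-likelihood test the Benjamini-Hochberg adjusted p was 0.517 for Pdp2 and 0.492 for Pdp1. Both carry the seed match printed above.

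Set against the phosphatases, the summed kinase TPM was 9.34 and 10.6 times the summed phosphatase TPM in controls, versus 7.68 and 8.79 times in mimic libraries. Both mimic libraries were lower than both controls, by less than the difference between the controls in the case of replicate 4. Of all tested genes 29.5% showed this order in CPM. The summed kinase TPM and the summed phosphatase TPM each overlapped between the groups. The ratio is one of mRNA levels and says nothing of the phosphorylation of the complex.

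**Figure D2:**
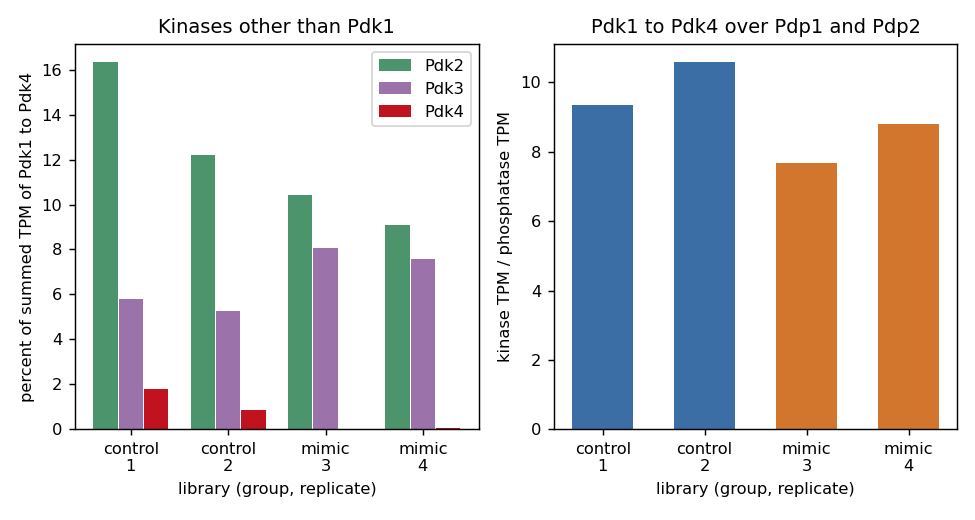
Left, bars give the percent of the summed TPM of Pdk1 to Pdk4 that came from Pdk2, Pdk3 and Pdk4 in each library, where the rest is Pdk1. Right, bars give summed kinase TPM over summed phosphatase TPM, which runs from 9.34 to 10.6 in controls, versus from 7.68 to 8.79 in mimic libraries.

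The subunits of the pyruvate carrier were close in level to each other and did not pass the test. Mpc1 (ENSMUSG00000023861; chr17:8282904-8297661, plus strand) was at 65.7 and 87.3 TPM in controls, versus 75.7 and 92.6 TPM in mimic libraries. Mpc2 (ENSMUSG00000026568; chr1:165460637-165481214, plus strand) was at 69.1 and 87.2 TPM in controls, versus 101 and 93.1 TPM in mimic libraries. Mpc1 overlapped between the groups, and Mpc2 overlapped in CPM but not in TPM. The log2 fold changes were 0.15 (SE 0.14, adjusted p 0.545) for Mpc1 and 0.22 (SE 0.13, adjusted p 0.335) for Mpc2 by edgeR's quasi-likelihood test, Benjamini-Hochberg adjusted. Without control replicate 1 the value of Mpc1 was -0.019. The Mpc1 to Mpc2 ratio of TPM was 0.951 and 1.001 in controls, versus 0.747 and 0.995 in mimic libraries, so it stood apart in mimic replicate 3 only. Mpc1 overlaps 4930506C21Rik, which held between 14.0 and 25.9 counts per library, and Mpc2 overlaps Gm37860, which held between 22 and 34.

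Pdha1 (ENSMUSG00000031299; chrX:160122209-160138413, minus strand) encodes the E1 subunit that the kinases phosphorylate, and Pdhb (ENSMUSG00000021748; chr14:8165996-8173025, minus strand) its partner in the E1 enzyme. The TPM of Pdha1 was 205 and 208 in controls, versus 185 and 209 in mimic libraries. In CPM, Pdha1 was lower in both mimic libraries (462 ± 0.299 against 426 ± 12.0, SD, n = 2), whereas in TPM the groups overlapped. The TPM of Pdhb was 79.7 and 94.8 in controls, versus 90.8 and 96.1 in mimic libraries, which also overlapped. The log2 fold changes were -0.12 (SE 0.10, adjusted p 0.485) for Pdha1 and 0.031 (SE 0.11, adjusted p 0.886) for Pdhb in edgeR's quasi-likelihood test, Benjamini-Hochberg adjusted, and without control replicate 1 that of Pdhb was -0.086. The Pdha1 to Pdhb ratio of TPM was 2.57 and 2.19 in controls, versus 2.04 and 2.18 in mimic libraries. Pdha1 overlaps Map3k15 on the other strand, which held 602 and 401 counts in controls, versus 319 and 464 in mimic libraries.

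In CPM, 1 of the 10 genes (Pdk3) was higher in both mimic libraries than in both controls, 3 (Pdk2, Pdk4 and Pdha1) were lower in both, and 6 overlapped. Among all tested genes, 28.9% were higher in both mimic libraries and 29.5% were lower in both, so a separation of this kind is common in these 4 libraries. The median log2 fold change of the 9 genes other than Pdk4 was 0.031, beside -0.012 over all tested genes. The expected counts of 7 genes were whole numbers in all 4 libraries, and those of Mpc1, Pdha1 and Pdhb were not, as happens where RSEM divides reads that match more than one gene.

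**Figure D3:**
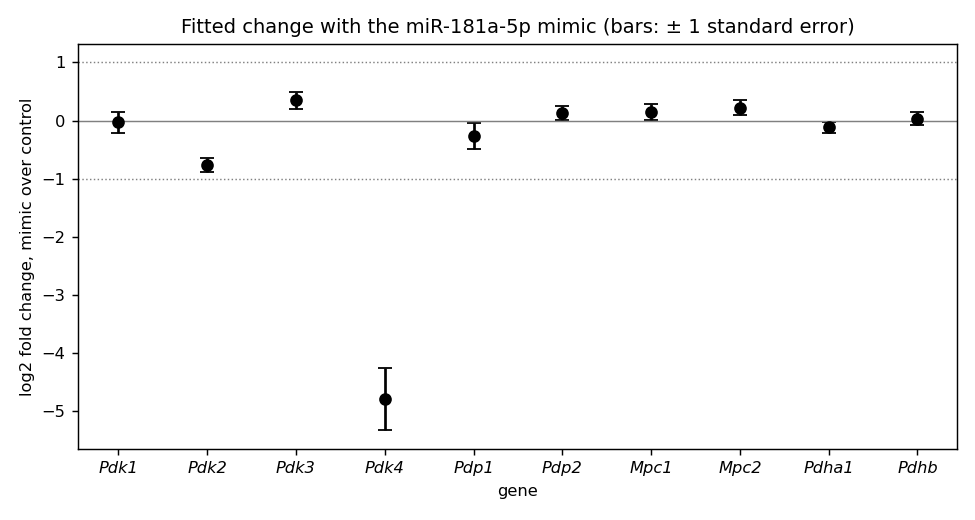
Fitted log2 fold change of each of the 10 genes, mimic over control, with bars of 1 SE on each side and dotted lines at the 2-fold limits. Pdk4, which was chosen by this value, lies at -4.80, Pdk2 at -0.77, and the other 8 genes between -0.27 and 0.35.

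In order of control mean TPM the genes ran Pdha1 (206), Pdk1 (185), Pdhb (87.3), Mpc2 (78.2), Mpc1 (76.5), Pdk2 (32.8), Pdp2 (20.0), Pdk3 (12.9), Pdp1 (3.42) and Pdk4 (2.97). The values of Pdha1 and Pdk1 overlapped, as did those of Pdhb, Mpc2 and Mpc1, and those of Pdp1 and Pdk4, while Pdk2, Pdp2 and Pdk3 were each apart from their neighbours. With the mimic Pdp2 (22.9) came above Pdk2 (20.7), and Pdk3 (16.7) came next, each overlapping with Pdk2. Pdk4 (0.105) was then well apart from Pdp1 (2.99).

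Genes around this step of metabolism were counted in 11 lists of 99 genes in all, of which 96 were tested. By the call of adjusted p under 0.05 and a fold change of at least 2, 2 (2.08%) were higher and 3 (3.12%) lower with the mimic, beside the 0.589% and 1.47% of all tested genes. At an adjusted p under 0.05 alone 3 (3.12%) were higher and 10 (10.4%) lower, beside 1.28% and 2.29% of all tested genes. At an unadjusted p under 0.05 there were 31 (32.3%), beside 24.8%. Their median log2 fold change was -0.028, beside -0.012 over all tested genes. The lists were chosen with earlier results of these data known, and whether they differ from other genes was not tested. All adjusted p-values of list genes are Benjamini-Hochberg values over all genes tested, from edgeR's quasi-likelihood test.

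The 4 partners of the complex (Dlat, Dld, Pdhx and Pdpr) and the 17 genes of the tricarboxylic acid cycle held no gene at an adjusted p under 0.05, whether in edgeR (quasi-likelihood or exact test) or in DESeq2. At an unadjusted p under 0.05 there were 0 of the 4 and 2 of the 17. The smallest p among the partners was that of Pdhx, the subunit that anchors the E3 enzyme, with a log2 fold change of 0.24 (SE 0.12, adjusted p 0.272). In the cycle it was that of Idh2, the mitochondrial NADP-linked isocitrate dehydrogenase, at -0.32 (SE 0.10, adjusted p 0.107). The list medians were 0.18 for the partners and -0.0036 for the cycle.

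Of the 14 genes of pyruvate supply and fate, 1 passed and was higher, and 6 had an unadjusted p under 0.05. By edgeR's exact test and by DESeq2, 3 genes of this list were also lower at an adjusted p under 0.05. Slc16a7, which encodes the monocarboxylate transporter MCT2 with high affinity for pyruvate and lactate, had 12 and 4 counts in controls, versus 53 and 78 in mimic libraries. Both mimic libraries were far above both controls, at low counts, and the log2 fold change was 3.06 (SE 0.44, adjusted p 0.0168). The same list holds Ldhb, a lactate dehydrogenase subunit, which had 51 and 62 counts in controls, versus 11 and 21 in mimic libraries (log2 fold change -1.78, SE 0.40, adjusted p 0.0591). It was 1 of those 3, with Ldhd, a lactate dehydrogenase that acts on D-lactate (-0.97, SE 0.25, adjusted p 0.0765), and Gpt, an alanine aminotransferase (-0.60, SE 0.16, adjusted p 0.0843). Of the more abundant genes, Pkm, the pyruvate kinase of most proliferating cells, had a log2 fold change of 0.10 (SE 0.18) and Ldha, the main lactate dehydrogenase subunit, one of 0.46 (SE 0.22), and neither passed (adjusted p 0.777 and 0.236).

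The 6 genes of acetyl-CoA use held no gene with an adjusted p under 0.05, by either edgeR test or DESeq2, and 0 of the 6 had an unadjusted p under 0.05. The smallest p was that of Acss2, which makes acetyl-CoA from acetate, with a log2 fold change of 0.39 (SE 0.20, adjusted p 0.274). Acly, which makes acetyl-CoA from exported citrate, had one of -0.0090 (SE 0.13, adjusted p 0.973), and the list median was 0.14.

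PPAR receptors act on Pdk4 in other tissues. Of 11 PPAR targets tested, 2 fell at an adjusted p under 0.05 (Angptl4 and Cyp4a10), and Cyp4a10 was also past the 2-fold limit. Cyp4a10, a fatty acid hydroxylase, had 37.7 and 13.6 counts in controls, versus 3 and 1.17 in mimic libraries (adjusted p 0.0471). Angptl4, an inhibitor of lipoprotein lipase, went from 25.7 ± 0.817 to 13.8 ± 0.677 CPM (SD, n = 2), and its log2 fold change was -0.90 (SE 0.12, adjusted p 0.0150). The list median was -0.22, 9 of the 11 were below 0, and 6 had an unadjusted p under 0.05, while 3 were lower at an adjusted p under 0.05 with the exact test and 1 with DESeq2. The other 9 did not pass edgeR's quasi-likelihood test. Their log2 fold changes ran from -1.27 (SE 0.53, adjusted p 0.188) for Vnn1, a pantetheinase, to 0.18 (SE 0.10, adjusted p 0.300) for Cpt1a, the gate of fatty acid entry into mitochondria. That of Fabp1, a fatty acid carrier of enterocytes, was -0.91 (SE 0.28, adjusted p 0.109). The paper's supplement lists Fabp1 with an adjusted p under 0.05 from its own edgeR fit. Cyp4a14 was at 0 counts in every library.

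Among 10 transcription factors and cofactors known to act on Pdk4, 1 passed and 3 had an unadjusted p under 0.05. Ppargc1a, the coactivator PGC-1 alpha, fell from 31.5 ± 2.73 to 18.7 ± 0.950 CPM (SD, n = 2), and its log2 fold change was -0.76 (SE 0.12, adjusted p 0.0259). The receptors and factors themselves did not pass. Ppard (log2 fold change 0.46, SE 0.15, adjusted p 0.119) and Esrra (0.37, SE 0.11, adjusted p 0.0988) were higher with the mimic. Both had an unadjusted p under 0.05. The log2 fold changes were 0.21 (SE 0.17) for Ppara, 0.0095 (SE 0.10) for Foxo1 and -0.00047 (SE 0.10) for the glucocorticoid receptor gene Nr3c1. The list median was 0.12.

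Targets of FOXO factors and of the glucocorticoid receptor went in both directions. Of 6 FOXO targets, Irs2 (-1.07, SE 0.14, adjusted p 0.0127) and Insr (-0.52, SE 0.10, adjusted p 0.0448), which carry the insulin signal, fell, and Sesn3, a stress-induced regulator of growth signaling, rose (0.61, SE 0.11, adjusted p 0.0311), as log2 fold changes. Of 5 glucocorticoid receptor targets tested, Dusp1, a MAP kinase phosphatase, fell by 1.13 on the log2 scale (SE 0.19, adjusted p 0.0284) and Per1, a clock gene, by 0.53 (SE 0.10, adjusted p 0.0427). The kinase gene Sgk1 of the same list rose (log2 fold change 1.46, SE 0.27, adjusted p 0.0379). The list medians were -0.19 for FOXO targets and -0.41 for glucocorticoid receptor targets, and 3 of the 6 and 4 of the 5 had an unadjusted p under 0.05.

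Of 12 HIF-1 targets 1 passed, Pfkfb4, a bifunctional regulator of glycolysis, with a log2 fold change of -0.69 (SE 0.14, adjusted p 0.0464) in a list with a median of -0.18, where 3 had an unadjusted p under 0.05 and 2 were lower at an adjusted p under 0.05 by edgeR's exact test and by DESeq2. In the related lists of cofactors and of the branched-chain ketoacid dehydrogenase, 1 gene each fell. Slc19a2, a transporter of thiamine, the vitamin from which the cofactor of the E1 enzyme is made, had a log2 fold change of -0.61 (SE 0.11, adjusted p 0.0328). Ppm1k, the phosphatase that activates the branched-chain complex, had one of -0.77 (SE 0.16, adjusted p 0.0460). The medians of these lists were -0.043 over 6 genes and -0.14 over 5 genes, and 2 genes in each had an unadjusted p under 0.05.

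**Figure D4:**
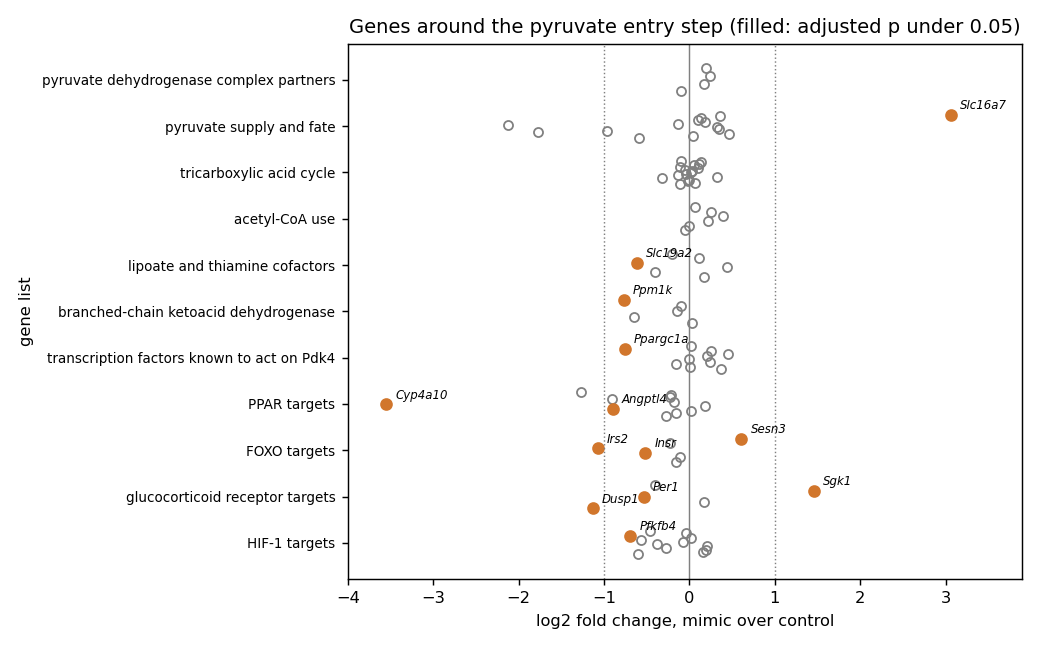
Fitted log2 fold change, mimic over control, of each tested gene in the 11 lists, with filled and named points where the adjusted p was under 0.05 and dotted lines at the 2-fold limits. Of 96 genes 13 (13.5%) are filled, 3 to the right and 10 to the left of 0, beside 3.57% of all tested genes, and the fitted value of Cyp4a10 rests on 1 to 3 counts in the mimic libraries.

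The enterocyte markers summed to 2182 and 3126 TPM in controls, versus 1519 and 1463 TPM in mimic libraries. Both mimic libraries were thus below both controls, an order that 29.5% of all tested genes showed in CPM. By gene, Fabp1 and Anpep were lower in both mimic libraries in TPM, while Vil1, Alpi, Apoa4 and Krt20 overlapped between the groups. Of the enterocyte markers, 5 of 6 had a log2 fold change below 0, with Anpep past the threshold (-2.14, SE 0.23, adjusted p 0.00812, edgeR's quasi-likelihood test, Benjamini-Hochberg adjusted). By edgeR's exact test 2 of the 6 were lower at an adjusted p under 0.05, and by DESeq2 1 was. Stem cell markers summed to 603 and 392 TPM in controls, versus 460 and 614 TPM in mimic libraries, which overlapped. Of these 5 markers Lgr5 fell (-1.38, SE 0.26, adjusted p 0.0369, the same test), Ascl2 was at -0.49, and Smoc2, Olfm4 and Axin2 were at 0.48, 0.22 and 0.047 on the log2 scale, of which Smoc2 (adjusted p 0.0794) passed an adjusted p under 0.05 by edgeR's exact test and DESeq2. The part of these markers in the fall of Pdk4 or Pdk2 was not tested. In bulk RNA, fewer cells of a type and less RNA per cell cannot be told apart.

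Muscle and fat express Pdk4 strongly, so their markers are given beside it. The muscle markers summed to 36.3 and 21.7 TPM in controls, versus 9.29 and 10.4 TPM in mimic libraries. Acta1 was the only one of the 5 that was tested, and it fell (-1.59, SE 0.24, adjusted p 0.0189, edgeR's quasi-likelihood test, Benjamini-Hochberg adjusted). The fat markers summed to 9.03 and 14.1 TPM in controls, versus 4.72 and 6.37 TPM in mimic libraries. Cidec was the only one of the 4 that was tested (-1.10, SE 0.24, adjusted p 0.0525, the same test). By edgeR's exact test and by DESeq2 it was lower at an adjusted p under 0.05. Acta1 made up nearly all of the muscle sum, at 36.1 and 21.7 TPM in controls, versus 9.24 and 10.4 TPM in mimic libraries. Cidec made up nearly all of the fat sum, at 9.03 and 14.1 TPM in controls, versus 4.72 and 6.3 TPM in mimic libraries. Neither sum therefore describes its list as a set. Myh1, Adipoq and Lep were at 0 in all 4 libraries, and the part of Acta1 and Cidec in the fall of Pdk4 was not tested.

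Genes that start within 500 kb of the start of Pdk4 on chromosome 6 were examined next. The 4 tested neighbours were Gm44250, Pon3, Gm44424 and Pon2, with log2 fold changes of -0.26 (SE 0.13), -0.32 (SE 0.13), -0.91 (SE 0.30) and -0.21 (SE 0.10), and none passed the test (adjusted p 0.274, 0.187, 0.126 and 0.246). Gm44424 and Pon3 had an unadjusted p under 0.05, at 0.0179 and 0.0430. Pon2 and Pon3 encode paraoxonases, lactonases with antioxidant activity. The other neighbours, Pon1, Asb4, Dync1i1 and 1700019G24Rik, had at most 1 count in any library and were not tested.

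The genes whose profiles lay nearest to that of Pdk4 over the 4 libraries were Mmp14, Tcaf2 and Oasl2, at Euclidean distances of 1.12, 1.495 and 1.65 between log2 CPM values centred on each gene's mean, among 11526 genes compared. Mmp14, a membrane-bound matrix metalloproteinase, was at 25.6 and 23.7 CPM in controls, versus 0.351 and 0.674 CPM in mimic libraries. Tcaf2, which encodes a TRP channel associated factor, was at 12.7 and 9.10 CPM in controls, versus 0.926 and 1.21 CPM in mimic libraries. Oasl2, an interferon-induced gene, was at 11.4 and 6.13 CPM in controls, versus 0.702 and 1.29 CPM in mimic libraries. Each of these, like Pdk4, was lowest in mimic replicate 3 and highest in control replicate 1. They were picked by nearness to Pdk4 over the same libraries, so a shared order is largely built into the choice.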

How the data were processed

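RNA-seq libraries of mouse SI organoids (2 with the mimic control, 2 with the miR-181a-5p mimic) were analysed. Reads were trimmed with Trimmomatic and quantified with RSEM on GRCm38 by the authors, who deposited expected counts per gene, not normalized, and TPM, scaled to the same total in each library. The labels name poly(A) selection and the supplemental methods ribosomal RNA depletion. Columns that matched no sample, 3 in each table, were not used. Expected counts were rounded and fitted in R 4.3.3 by edgeR 4.0.16 (glmQLFit and glmQLFTest after filterByExpr and TMM), with Benjamini-Hochberg adjustment over 17155 genes. The fit was also run on simulated counts that gave every gene the same spread between replicates. That run does not check the fit for genes of unequal spread. SE is the size of the log2 fold change over the square root of F. A call needs an adjusted p under 0.05 and a fold change of at least 2, as in the study.

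Coordinates and 3′ UTRs came from GENCODE M21 (GRCm38) and the miRNA from RefSeq (GRCm38.p6). The genes and lists were chosen with earlier results of these data known. Some list genes are not reported here and were left out of the lists and their counts. Named genes are the 10 genes, the called genes of each list (or its gene with the smallest p), the 3 profiles nearest to Pdk4 among genes whose higher group had 100 counts or more per library, and its neighbours within 500 kb. Other named genes were chosen after their values were seen. Alternatives were edgeR's exact test, the legacy quasi-likelihood form (added after the data were seen), DESeq2 1.42.0, other scalings and filters, limma 3.58.1 on TPM after log2 with a pseudocount of 1 or 0.1 (genes at 1 TPM or more in 2 libraries), and leaving out each library.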

Additional observations from a re-analysis of the deposited data

How the results depend on the processing

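The results for the 10 genes were recomputed under 13 alternatives, 4 of which left out 1 library each and so took the lone library of its group to vary like the others. No paired analysis was possible because the groups share no replicate number. The log2 fold changes of Pdk3, Pdp1, Pdp2, Mpc2 and Pdha1 kept their direction and stayed above an adjusted p of 0.05 in all 13, and no gene among the 9 was called. Pdk2 was lower in all 13 and lost its adjusted p under 0.05 in 4, so that the count of the 9 genes lower at that threshold went from 1 to 0, namely without the filter on low counts (log2 fold change -0.76, adjusted p 0.0794), on log2(TPM + 1) (0.141) and log2(TPM + 0.1) (0.152), and without mimic replicate 3 (0.0743), in a leave-one-out range of 0 to 1. Its adjusted p ranged from 1.76e-05 with the exact test to 0.152. The Pdk4 value was -1.82 on log2(TPM + 1), -3.89 on log2(TPM + 0.1), and from -5.21 to -4.18 with 1 library left out. It had no value at 10 counts or more in every library, a filter it did not pass. Without control replicate 1, Mpc1 (-0.019, leave-one-out range -0.019 to 0.33) and Pdhb (-0.086, range -0.086 to 0.16) changed sign, as did Pdk1 without control replicate 2 (0.14) or mimic replicate 3 (0.20, range -0.29 to 0.20).

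Of all genes, 200 were called higher and 526 lower by the exact test, 50 and 108 without the filter, 30 and 41 on log2(TPM + 1), and 11 and 16 on log2(TPM + 0.1). Of the list genes, 1 was called higher without the filter and with at least 10 counts in every library, and 0 higher and 0 lower on both TPM scales. With 1 library left out, 115 to 230 of all genes were called higher and 166 to 661 lower, the most without control replicate 2 and the fewest lower without mimic replicate 3, and of the list genes 1 to 2 were higher and 2 to 6 lower. The cause of these changes was not tested. With 2 libraries per group the spread between replicates limits the precision, and Pdk4 rests on 5 and 9 counts with the mimic.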
